A study of Rattus norvegicus with 16 samples.

Results

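Rag1, Rag2, Igll1, Vpreb3 and Dntt are 5 genes that developing B lymphocytes use while they assemble and test their antigen receptor. They were taken by symbol from a table of read counts, and all 5 were among its 14476 genes. They were chosen by measured values, with earlier results of these data known: Rag1 and other B lymphocyte genes had been found at lower counts in the induced membrane than in the tissue of an empty defect. Which contrast weighed in the choice is not recorded, and it was taken to be that one. The levels in those 2 tissues are therefore given as a description, from which nothing is concluded.

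The libraries came from 4 Sprague-Dawley rats, each with plated osteotomies on both sides, sampled at 4 weeks. On 1 side a polymethyl methacrylate (PMMA) cement spacer was placed, as in the first stage of the Masquelet treatment of bone defects, and on the other the gap was left empty. Each rat gave a library to each of 4 groups, namely the induced membrane around the spacer (IM), the tissue of the empty osteotomy, labelled pre-fibrous non-union (PFNU), bone next to the spacer (PMMA bone) and bone next to the empty defect (BNED). All groups share the osteotomy and the plate, so none is uninjured tissue, and the empty side of each rat served as the control of its spacer side. The labels used here give no age. Separate rats are the replicates.

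B lymphocytes form in bone marrow. RAG1 and RAG2 together make the enzyme that cuts immunoglobulin gene segments so that they can be rejoined, and terminal deoxynucleotidyl transferase, encoded by Dntt, adds untemplated bases at the joints. Igll1 encodes lambda 5, which pairs with VpreB to form the surrogate light chain of the pre-B cell receptor, and VPREB3 is a related protein of B lineage cells that binds immunoglobulin chains inside the cell. RAG and Dntt also act in T cell precursors in the thymus. The expression of Rag1, Rag2, Igll1 and Dntt largely ends as B cells mature, so in adult animals they are known as marks of lymphocyte precursors. Vpreb3 is not taken here as a mark of precursors alone.

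Rag1 and Rag2 are direct neighbours on rat chromosome 3. The sequences around the start sites of Rag1, Rag2 and Vpreb3 are shown because Rag1 and Rag2 kept a steady ratio across bone libraries and Vpreb3 was the member called between the bones. Each holds 250 bases before and 50 after the start, from RefSeq, build GRCr8, 5' to 3' on the strand of the gene.

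Rag1 promoter, chr3:108383135-108383434, minus strand: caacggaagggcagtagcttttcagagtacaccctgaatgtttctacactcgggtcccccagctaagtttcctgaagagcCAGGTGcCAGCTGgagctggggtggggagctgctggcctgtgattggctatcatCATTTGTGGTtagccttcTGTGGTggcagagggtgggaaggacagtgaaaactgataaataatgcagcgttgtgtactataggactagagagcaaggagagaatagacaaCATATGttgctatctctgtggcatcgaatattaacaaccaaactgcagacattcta

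Rag2 promoter, chr3:108357149-108357448, plus strand: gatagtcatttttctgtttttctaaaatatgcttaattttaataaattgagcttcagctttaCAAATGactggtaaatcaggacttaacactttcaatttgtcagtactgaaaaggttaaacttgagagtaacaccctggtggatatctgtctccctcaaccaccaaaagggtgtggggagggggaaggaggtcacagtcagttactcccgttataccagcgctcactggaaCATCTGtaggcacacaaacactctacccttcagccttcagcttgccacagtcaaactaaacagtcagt

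Vpreb3 promoter, chr20:12718177-12718476, minus strand: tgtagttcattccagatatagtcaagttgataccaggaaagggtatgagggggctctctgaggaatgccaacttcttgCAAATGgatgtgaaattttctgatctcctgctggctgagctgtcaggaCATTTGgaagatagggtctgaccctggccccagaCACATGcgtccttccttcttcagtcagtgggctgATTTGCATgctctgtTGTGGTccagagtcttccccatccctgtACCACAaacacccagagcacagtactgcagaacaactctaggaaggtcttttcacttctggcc

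Capitals mark matches, on either strand, to the E-box CANNTG bound by basic helix-loop-helix factors, to the octamer ATGCAAAT known from immunoglobulin promoters, and to TGTGGT, the core bound by RUNX factors. All 5 genes had a promoter in the RefSeq set and were searched. E-box letters occurred 4 times in Rag1, 2 times in Rag2 and 3 times in Vpreb3, and 72.1% of all 33469 promoters of this length held at least 1. The octamer occurred once, in Vpreb3, against 1.78% of all promoters, and TGTGGT occurred 2 times each in Rag1 and Vpreb3, against 17.3%. In Rag1 an E-box match overlapped a TGTGGT match. Igll1 held 5 E-box matches and 1 TGTGGT match, and Dntt held 3 E-box matches. These matches describe letters only and were not tested as binding sites.

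Libraries held 40472228 to 76815879 counts, and levels are given as CPM, counts scaled to 1e+06 per library of adjusted size. Markers of other cells differed between libraries. The PMMA bone library of rat 1 had 7702 CPM summed over 9 erythroid genes, above the range of BNED (3899 to 6274 CPM), and the other 3 PMMA bone libraries had 960 to 1542 CPM, so the members, the gene lists and the nearest genes are also given without it. Tfrc, which dividing cells of other types express too, made up much of the lower sums. Without it the other 8 erythroid genes held 6170, 277, 318 and 928 CPM in PMMA bone of rats 1 to 4 and 2997 to 5048 CPM in BNED. Summed over 12 skeletal muscle genes, libraries held 19675 to 283750 CPM in IM and 49835 to 156870 CPM in PFNU, against 1393 to 8735 CPM in PMMA bone and 3059 to 29699 CPM in BNED. Of 8 bone matrix and osteocyte genes none was at 0 in any group, and their summed levels were 57779 to 87538 CPM in PMMA bone and 19573 to 50030 CPM in BNED. On that list the membranes of rats 1 to 4 held 39720, 14932, 50284 and 7708 CPM, and PFNU 9492 to 25148 CPM.

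All 5 genes had the same order of mean level, lowest in IM, then PFNU, then PMMA bone, and highest in BNED. Neighbouring groups in this order did not overlap in any library, except Dntt in PMMA bone and BNED. Of all genes, 3.31% were lower without overlap in IM than in PFNU, and 7.05% in PMMA bone than in BNED. The share between PFNU and PMMA bone was not counted. The order is a description, since the genes were taken to be chosen with IM and PFNU levels known. Rag1, the catalytic partner of the recombinase, had 0.345, 0.100, 0.135 and 0.217 CPM in the membranes of rats 1 to 4. In PFNU of the same rats it had 1.21, 9.72, 2.70 and 11.95 CPM. It had 77.4, 22.5, 21.5 and 47.8 CPM in PMMA bone, against 187, 131, 131 and 121 CPM in BNED. The membranes were all low, at 6 to 18 counts, and differed 3.44-fold between the highest and lowest library. PFNU differed 9.86-fold between its highest and lowest library, PMMA bone 3.60-fold and BNED 1.54-fold.

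Rag2, which holds the recombinase on chromatin as the partner of RAG1, had 0.173, 0, 0.0963 and 0.0197 CPM in IM and 0.736, 2.32, 0.706 and 3.41 CPM in PFNU. In bone it had 19.1, 4.86, 6.54 and 13.1 CPM in PMMA bone, against 60.2, 31.2, 35.7 and 39.0 CPM in BNED. The 4 membranes together held 15 counts of Rag2, and the 0 counts of rat 2 allow a level of up to 0.0502 CPM (3 counts, counting error only). The order of rats within PMMA bone was close to that of Rag1, with rats 1 and 4 above rats 2 and 3.

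Igll1, the lambda 5 chain, had 0.0384, 0.201, 0.0193 and 0.395 CPM in IM and 1.34, 2.01, 1.95 and 5.14 CPM in PFNU. It had 39.3, 16.5, 13.02 and 33.5 CPM in PMMA bone, against 63.2, 59.8, 39.96 and 49.9 CPM in BNED. Vpreb3 had 0.0768, 0.335, 0.327 and 0.0790 CPM in IM and 0.541, 2.26, 1.25 and 3.87 CPM in PFNU. Rats 1 and 4 were again the higher pair in PMMA bone for both genes, and rat 4 was the highest PFNU library for all 5 genes. Vpreb3 had 15.9, 7.15, 6.46 and 12.3 CPM in PMMA bone, against 58.9, 38.3, 36.1 and 28.5 CPM in BNED. Dntt, the template-independent polymerase, had 0.844, 0.469, 0.462 and 0.573 CPM in IM and 1.02, 4.25, 2.57 and 7.87 CPM in PFNU. In bone Dntt had 53.2, 13.7, 13.4 and 36.5 CPM in PMMA bone, against 46.0, 55.8, 35.2 and 45.9 CPM in BNED, so the PMMA bone of rats 1 and 4 lay within the BNED range.

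**Figure D1:**
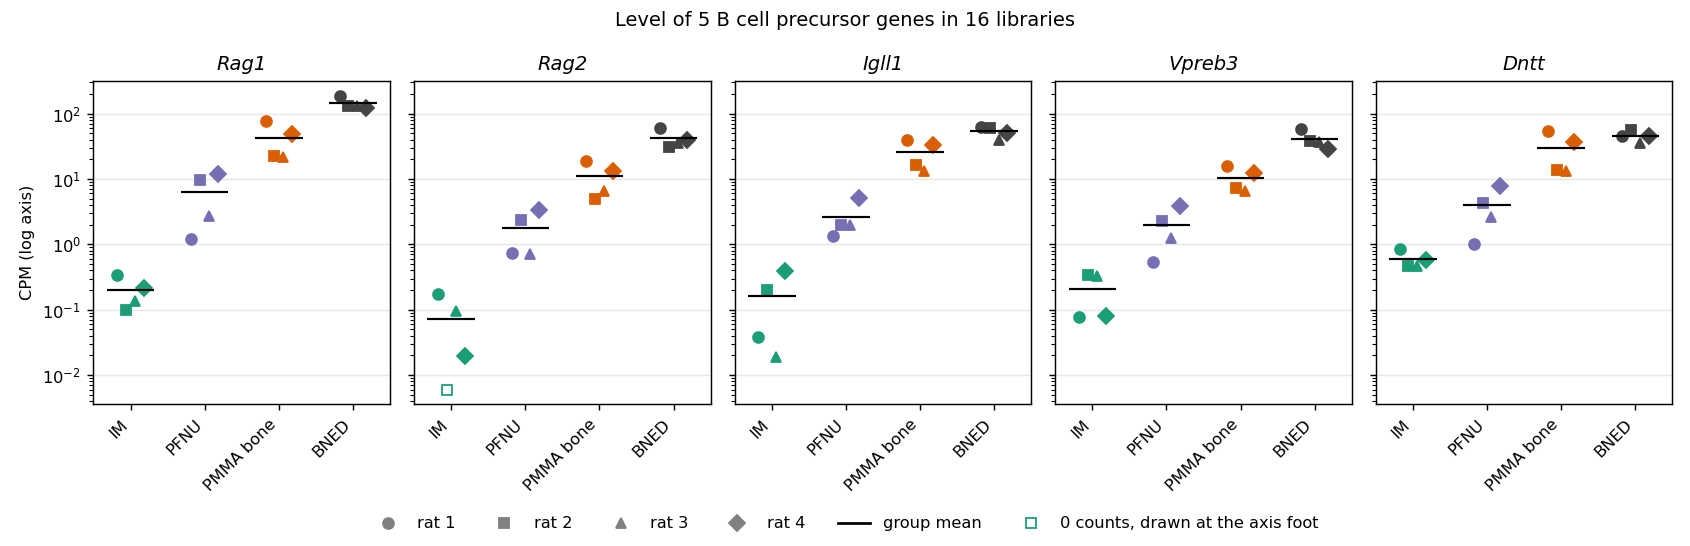
Level of each gene in CPM (log axis) in the 4 libraries of each group; symbols are rats, lines are group means, and the open symbol is the Rag2 value of 0 in the membrane of rat 2. In every panel the group means are lowest in IM, then PFNU, then PMMA bone, and highest in BNED, and only Dntt overlaps between PMMA bone and BNED.

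Bone next to the spacer was compared with bone next to the empty defect. These libraries had no part in the contrast of IM with PFNU, but whether their values also bore on the choice of genes is not recorded. Vpreb3 fell in PMMA bone, to 10.4 ± 4.46 CPM, against 40.4 ± 13.01 CPM in BNED (SD, n = 4 each), a log2 fold change of -1.95 (SE 0.52, edgeR quasi-likelihood test, Benjamini-Hochberg adjusted p = 0.0447). Rag2 averaged 10.9 ± 6.51 CPM in PMMA bone and 41.5 ± 12.9 CPM in BNED (log2 fold change -1.93, SE 0.59, adjusted p = 0.0680 by edgeR). Rag1 averaged 42.3 ± 26.4 CPM in PMMA bone and 143 ± 30.0 CPM in BNED (-1.75, SE 0.58, adjusted p = 0.0887 by edgeR). Neither recombinase gene passed the threshold of 0.05, although their libraries did not overlap and all 4 rats had the lower value on the spacer side. Igll1 averaged 25.6 ± 12.8 CPM in PMMA bone and 53.2 ± 10.5 CPM in BNED (-1.06, SE 0.52, adjusted p = 0.228 by edgeR), also without overlap. Dntt averaged 29.2 ± 19.3 CPM in PMMA bone and 45.7 ± 8.39 CPM in BNED (-0.65, SE 0.51, adjusted p = 0.451 by edgeR), lower in 3 of 4 rats.

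Thus 1 of 5 genes fell and 4 did not pass, where 1.40% of all 12857 genes tested were called lower. No overlap with a lower level in PMMA bone was found for 4 of 5, against 7.05% of all genes. The median log2 fold change of the 5 was -1.75, and that of all genes was -0.01. In bulk tissue, fewer cells of a type and less RNA per cell cannot be told apart. With a replicate block for rat, Vpreb3 had an adjusted p of 0.0652 by edgeR and none of the 5 was called. Without PMMA bone of rat 1, edgeR called Vpreb3 (-2.23, adjusted p = 0.0163), Rag1 (-2.22, adjusted p = 0.0228) and Rag2 (-2.35, adjusted p = 0.0199), and Igll1 (adjusted p = 0.114) and Dntt (adjusted p = 0.153) did not pass. Without that library, calls over all genes also rose, to 2578, and 10.5% of all genes were called lower. That library was the highest of PMMA bone for all 5 genes, so larger falls without it follow from its removal. Without PMMA bone of rats 2, 3 or 4, Vpreb3 had adjusted p of 0.156, 0.153 and 0.100 by edgeR, and without BNED of rats 1 to 4 it had 0.157, 0.0773, 0.0892 and 0.0585. Over all genes edgeR called 0 without PMMA bone of rats 2, 3 or 4 or BNED of rats 1 or 3, when 2019 to 2654 genes had an unadjusted p under 0.05, against 631 called with all libraries, and DESeq2 and limma-voom on all libraries called 1546 and 6244.

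Rat by rat, the level in PMMA bone as a percentage of that in BNED showed the same pairs of rats for each gene. Rag1 in PMMA bone was at 41.4, 17.2, 16.4 and 39.4% of the BNED level in rats 1 to 4, and Vpreb3 at 27.0, 18.7, 17.9 and 43.1%. Dntt was at 116, 24.6, 38.1 and 79.5%. Rats 2 and 3 had the lower percentages for all 5 genes. Erythroid genes ranked the same pair of PMMA bone libraries highest. Slc4a1, the anion exchanger of red cells, had 2254, 107, 112 and 328 CPM in PMMA bone of rats 1 to 4, and Hemgn had 720, 24.6, 31.5 and 94.96 CPM. The part of erythroid and other marrow cells in this result was not tested.

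Within a library, counts of the other members were set against Rag1, because a ratio inside a library does not depend on its scaling. This view was chosen after the values were seen and has no test. Dntt had 68.7, 61.0, 62.4 and 76.3 counts per 100 counts of Rag1 in PMMA bone of rats 1 to 4, against 24.6, 42.6, 26.8 and 37.8 in BNED. Igll1 had 50.7, 73.5, 60.5 and 70.1 counts per 100 of Rag1 in PMMA bone, against 33.8, 45.7, 30.4 and 41.1 in BNED. Both ratios were higher in all 4 PMMA bone libraries than in any BNED library. Rag2 had 21.6 to 30.4 counts per 100 of Rag1 in PMMA bone and 23.8 to 32.2 in BNED, and Vpreb3 20.5 to 31.8 in PMMA bone and 23.5 to 31.5 in BNED. The 5 genes thus divided into Rag1, Rag2 and Vpreb3, whose proportions to each other overlapped between the bones, and Dntt and Igll1, whose share was larger next to the spacer. In PFNU the ratios spread widely, at 43.7 to 95.4 for Dntt and 20.6 to 111 for Igll1. In IM the 6 to 18 counts of Rag1 per library were too few for a ratio to be read.

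**Figure D2:**
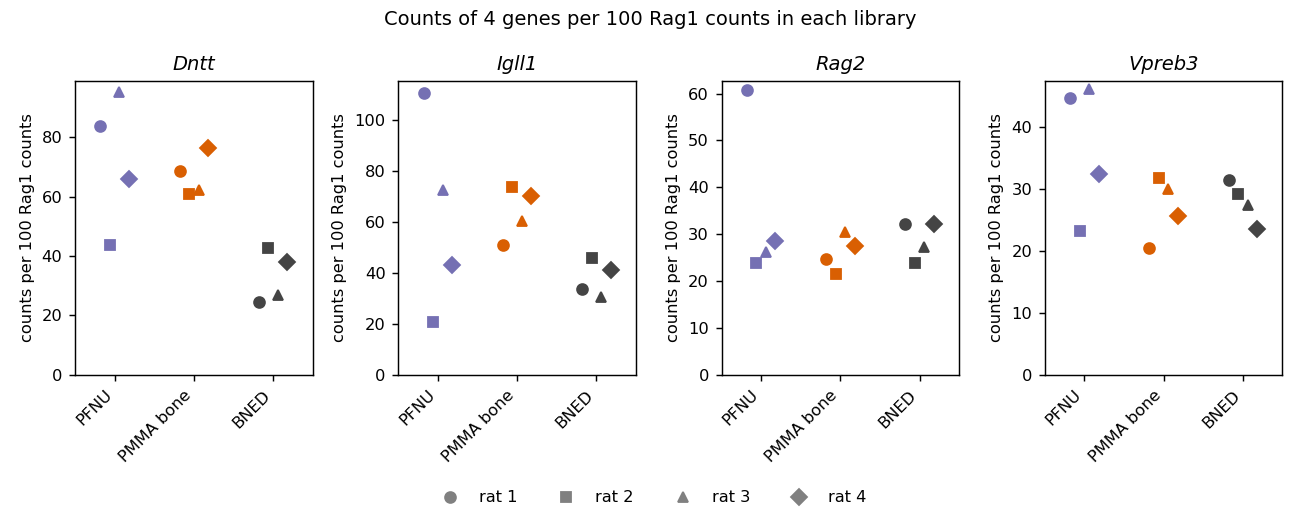
Counts of Dntt, Igll1, Rag2 and Vpreb3 per 100 counts of Rag1 in each library of PFNU, PMMA bone and BNED, with symbols for rats. Dntt lies at 61.0 to 76.3 in PMMA bone and 24.6 to 42.6 in BNED, while the Rag2 and Vpreb3 ranges of the bones overlap.

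Set against Cd79b, which encodes a signalling chain of the antigen receptor that B cells carry from early precursors to mature cells, Rag1 also varied between tissues. The ratio of Rag1 to Cd79b counts was 0.205, 0.0294, 0.0574 and 0.0859 in IM of rats 1 to 4 and 0.228, 0.493, 0.201 and 0.441 in PFNU. It was 0.878, 0.482, 0.377 and 0.553 in PMMA bone and 0.643, 0.536, 0.544 and 0.646 in BNED. The bones overlapped, and PFNU overlapped PMMA bone and not BNED. The IM values lay below those of both bones, but they rest on 6 to 18 counts of Rag1 per library and are uncertain. IM overlapped PFNU only through the membrane of rat 1 and PFNU of rat 3, which lay too close together for their order to be read. These ratios are a description, since the choice of genes was taken to rest on their levels in IM and PFNU.

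The membrane was next set against bone of the same limb, and PFNU against bone of its limb, to see how far defect tissue differs from bone in these genes. IM and PFNU libraries also entered the contrast known when the genes were chosen. The p values and calls of the 5 genes here are therefore not independent of that choice, and they are given as a description of the differences. All 5 genes fell in IM relative to PMMA bone, where 11.0% of all genes were called lower, and all 5 fell in PFNU relative to BNED, where 15.2% were. Rag1 averaged 0.199 ± 0.109 CPM in IM and 42.3 ± 26.4 CPM in PMMA bone (SD, n = 4 each; log2 fold change -7.72, SE 0.79, adjusted p = 4.88e-05 by edgeR). Log2 fold changes of IM against PMMA bone were -7.22 for Rag2 (SE 0.82, adjusted p = 1.05e-04 by edgeR), -7.27 for Igll1 (SE 0.72, adjusted p = 3.84e-05), -5.64 for Vpreb3 (SE 0.65, adjusted p = 1.16e-04) and -5.63 for Dntt (SE 0.63, adjusted p = 1.03e-04). As fitted, the Rag1 level was 212-fold lower in IM than in PMMA bone and the Dntt level 49.6-fold lower.

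In the empty limb, Rag1 averaged 6.39 ± 5.24 CPM in PFNU and 143 ± 30.0 CPM in BNED (SD, n = 4 each; log2 fold change -4.48, SE 0.65, adjusted p = 3.22e-04 by edgeR). Log2 fold changes of PFNU against BNED were -4.54 for Rag2 (SE 0.66, adjusted p = 3.34e-04 by edgeR), -4.35 for Igll1 (SE 0.60, adjusted p = 2.31e-04), -4.35 for Vpreb3 (SE 0.58, adjusted p = 2.09e-04) and -3.54 for Dntt (SE 0.56, adjusted p = 4.93e-04). In both comparisons all 4 rats had the lower value in the defect for each gene and no libraries overlapped, as was so for 11.7% of all genes in the spacer limb and 21.0% in the empty limb. Dntt had the smallest fold change of the 5 genes in the empty limb, while in the spacer limb Dntt (-5.63) and Vpreb3 (-5.64) were nearly equal. Every gene was called whichever library was left out, with the highest adjusted p at 0.00256 (Dntt, PFNU against BNED, edgeR). Leaving out a library does not remove the effect of choosing the genes with IM and PFNU values known. Erythroid genes, at 71.9 to 387 CPM in IM and 183 to 707 CPM in PFNU in sum, were also lower there than in bone, with all 9 called in both comparisons. Of 12 skeletal muscle genes, 10 were called higher and 1 lower (log2 fold change -6.99) in IM than in PMMA bone. In PFNU against BNED 9 of them were called higher and 0 lower. The part of these tissues in the results was not tested.

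The contrast of IM with PFNU, known when the genes were chosen, is given as a description. Log2 fold changes were -5.00 for Rag1, -4.62 for Rag2, -3.98 for Igll1, -3.24 for Vpreb3 and -2.74 for Dntt. All 5 were called lower by edgeR, against 0.498% of all genes, and all 5 without overlap of libraries, against 3.31%, and nothing is read from these counts. Summed over the 5 genes, the membranes held 1.04 to 1.48 CPM and PFNU 4.85, 20.5, 9.18 and 32.2 CPM in rats 1 to 4. PFNU of rats 2 and 4 also had the higher erythroid sums of that group, 611 and 707 CPM, against 183 and 274 CPM in rats 1 and 3.

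**Figure D3:**
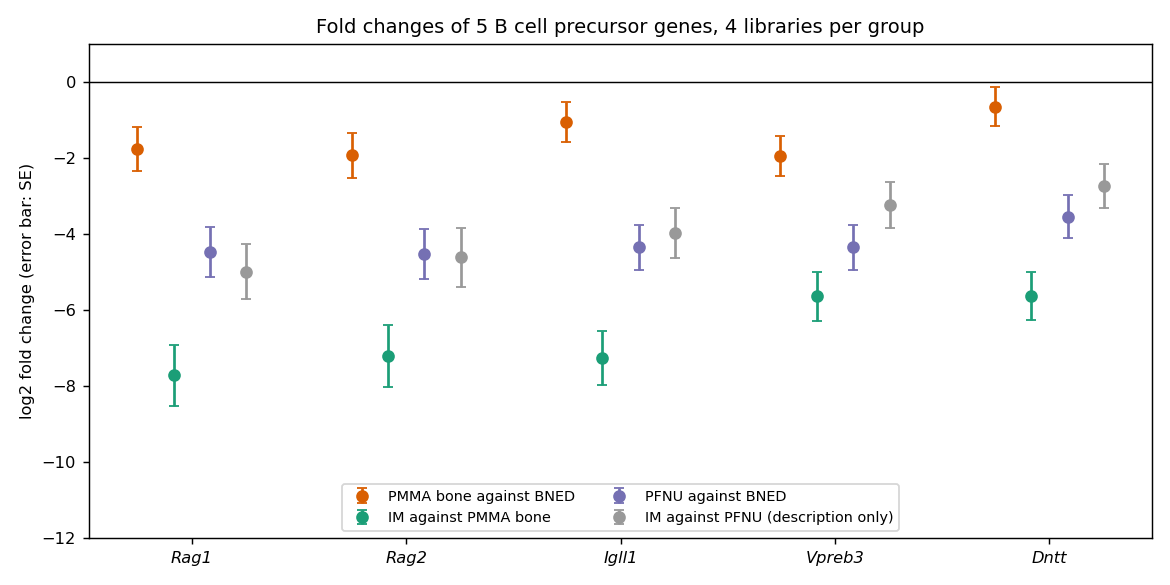
Log2 fold change (points) with its standard error (bars) for each gene in 4 comparisons of 4 libraries with 4; grey points are the contrast known when the genes were chosen. Values of IM against PMMA bone lie at -7.72 to -5.63, PFNU against BNED at -4.54 to -3.54 and PMMA bone against BNED at -1.95 to -0.65.

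Other genes of the pre-B cell receptor were examined beside the members, and each list named here was, like the members, chosen with earlier results known. Of 9 measured genes of the surrogate light chain and pre-B receptor signalling, 3 fell in PMMA bone relative to BNED, 6 did not pass, and the median log2 fold change was -1.11. They were Cd79b (69.6 ± 20.9 CPM in PMMA bone and 241 ± 42.2 CPM in BNED, SD, n = 4 each; log2 fold change -1.79, SE 0.38, adjusted p = 0.0250 by edgeR), the kinase gene Btk (-1.20, adjusted p = 0.0364) and the phospholipase gene Plcg2 (-1.01, adjusted p = 0.0189). Vpreb1 and Vpreb2 encode the VpreB partner of lambda 5, and as near-identical copies may share reads. Vpreb1 averaged 2.17 ± 1.56 CPM in PMMA bone and 3.22 ± 0.574 CPM in BNED (-0.58, adjusted p = 0.632 by edgeR), and Vpreb2 2.19 ± 1.24 CPM in PMMA bone and 4.77 ± 1.30 CPM in BNED (-1.12, adjusted p = 0.298). The membranes held 1 count of Vpreb1 and 6 of Vpreb2 in all, and PFNU 20 and 58. In the list, 6 fell in IM against PMMA bone, 9 fell in PFNU against BNED, and 1 was called lower in IM than in PFNU.

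Transcription factors that commit cells to the B lineage moved unevenly. Of 15 measured genes of early B lineage transcription and growth, 6 fell and 1 rose in PMMA bone relative to BNED, with a median log2 fold change of -0.89. The gene that rose was Erg, a factor of stem cells and blood vessel lining (0.82, SE 0.18, adjusted p = 0.0250 by edgeR), and it was also the one that rose in the other 2 tested comparisons. Ikzf3, encoding Aiolos, fell to 3.18 ± 1.08 CPM in PMMA bone, against 17.5 ± 2.78 CPM in BNED (SD, n = 4 each; -2.46, SE 0.34, adjusted p = 0.0174 by edgeR). Spib (-1.9997, adjusted p = 0.0212 by edgeR) and Pou2af1, the B cell coactivator of octamer factors (-1.83, adjusted p = 0.0373), fell with it. Ebf1, a factor that starts the B lineage programme and is also expressed by stromal and fat cells, was at 53.0 ± 15.3 CPM in PMMA bone and 87.0 ± 12.4 CPM in BNED (-0.71, adjusted p = 0.0476 by edgeR). Pax5, which maintains B cell identity, was at 10.7 ± 2.56 CPM in PMMA bone and 28.3 ± 5.43 CPM in BNED (-1.40, adjusted p = 0.0702 by edgeR). In IM Pax5 was at 0.325 ± 0.264 CPM while Ebf1 was at 60.6 ± 12.8 CPM (SD, n = 4), within the range seen in bone. Ebf1 did not differ detectably between IM and PMMA bone (log2 fold change 0.19, SE 0.19, adjusted p = 0.494 by edgeR), where Pax5 fell by 5.01 (adjusted p = 4.88e-05). In the list 9 fell and 1 rose in IM against PMMA bone, 11 fell and 1 rose in PFNU against BNED, and 4 were called lower in IM than in PFNU.

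RAG makes the breaks, and the general end-joining enzymes of all cells close them. Of 12 measured end-joining genes and RAG cofactors, 3 fell and 9 did not pass in PMMA bone relative to BNED (median -0.52). The ligase gene Lig4 was at 98.6 ± 43.1 CPM in PMMA bone and 263 ± 51.5 CPM in BNED (SD, n = 4 each; -1.42, SE 0.25, adjusted p = 0.0174 by edgeR). Polm, a polymerase related to terminal transferase, fell by 1.18 (adjusted p = 0.0375 by edgeR) and the break-sensing kinase gene Atm by 0.87 (adjusted p = 0.0401). In IM against PMMA bone 3 fell, with a median of -0.18, and in PFNU against BNED 6 fell and 1, the polymerase gene Poll, rose, with a median of -0.73. Between IM and PFNU none was called by edgeR, DESeq2 or limma-voom, and 0 had an unadjusted p under 0.05 by edgeR (median -0.10).

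Mature B cell markers were examined in the same way. Of 11 measured, 7 fell in PMMA bone relative to BNED and 4 did not pass (median -1.66). Among those that did not pass were Cr2 (-1.98, adjusted p = 0.0967 by edgeR) and Fcer2 (-1.54, adjusted p = 0.144), and the Fcer2 libraries of the bones overlapped. Ms4a1, encoding CD20, was at 19.7 ± 14.0 CPM in PMMA bone and 83.5 ± 16.7 CPM in BNED (SD, n = 4 each; -2.08, SE 0.47, adjusted p = 0.0290 by edgeR). Fcrla fell by 1.90 (adjusted p = 0.0174 by edgeR) and the B lymphoid kinase gene Blk by 1.79 (adjusted p = 0.0230). Blk was also among the genes that varied most like Rag1 and Rag2, so its fall is not read as one of mature B cells alone. In that list 8 fell in IM against PMMA bone, 9 fell in PFNU against BNED and 7 were called lower in IM than in PFNU. Of 6 measured plasma cell genes none was called by edgeR between the bones (3 had an unadjusted p under 0.05, and DESeq2 and limma-voom called 2 and 5), with a median of 0.11, and their summed level was 454 to 939 CPM in PMMA bone and 310 to 439 CPM in BNED.

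T lineage genes overlapped between all groups in sum. Over 12 measured genes they held 194 to 314 CPM in IM, 152 to 333 CPM in PFNU, 233 to 295 CPM in PMMA bone and 264 to 373 CPM in BNED. Over the same libraries the 5 precursor genes in sum spanned 1.04 CPM in the lowest membrane and 415 CPM in the highest BNED library. Their low level in IM was taken to bear on the choice of genes, so these spans are a description only. Of the 12, Cd3g, a chain of the T cell receptor complex, fell in PMMA bone relative to BNED (-1.58, adjusted p = 0.0350 by edgeR) and 11 did not pass. The median between the bones was -0.89, the same as in the early B lineage list, with 10 of 12 values negative and 5 lower without overlap. The median was 0.01 between IM and PMMA bone and -0.44 between PFNU and BNED, where 2 and 3 fell. Cd3e was at 6.15 ± 4.404 CPM in IM and 4.30 ± 1.08 CPM in PMMA bone (SD, n = 4 each; 0.51, SE 0.52, adjusted p = 0.496 by edgeR). Between IM and PFNU none of the 12 was called by edgeR, DESeq2 or limma-voom, and 0 had an unadjusted p under 0.05 by edgeR.

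Stromal factors that support B precursors were measured in the same libraries. Of 8, none was called by edgeR between the bones (median -0.71; 3 had an unadjusted p under 0.05, and DESeq2 and limma-voom called 1 and 6), 3 fell in IM against PMMA bone, and 4 fell in PFNU against BNED. Cxcl12, the chemokine that holds B precursors in marrow, had log2 fold changes of -0.73 between PMMA bone and BNED (adjusted p = 0.194 by edgeR), -1.67 between IM and PMMA bone (adjusted p = 0.00454) and -1.76 between PFNU and BNED (adjusted p = 0.00183). Il7, the growth factor of B precursors in rodents, was at 5.04 ± 3.85 CPM in IM, 4.17 ± 1.51 CPM in PFNU, 6.004 ± 1.71 CPM in PMMA bone and 9.74 ± 3.65 CPM in BNED (SD, n = 4 each). Its adjusted p was 0.0764 to 0.745 in the 3 tested comparisons by edgeR. The order of mean summed levels seen for the precursor genes, lowest in IM, then PFNU, PMMA bone and BNED, also held for the stromal (858, 1240, 2331 and 3832 CPM), erythroid (212, 444, 2890 and 5185 CPM), neutrophil (20.6, 82.7, 335 and 1486 CPM) and end-joining lists (420, 488, 853 and 1710 CPM). It held for the pre-B receptor, early B lineage and mature B cell lists too, and not for the T lineage, plasma cell, muscle and bone lists. Cxcl12 alone averaged 574, 899, 1830 and 3035 CPM in these groups, most of the stromal sum. Hmgb2 averaged 51.9, 91.7, 371 and 898 CPM of the end-joining sum. Neutrophil lineage genes, of which 4 of 12 fell between the bones (median -2.06), held 211 to 594 CPM in PMMA bone in sum and 1217 to 1781 CPM in BNED. Of 9 erythroid genes none was called between the bones by edgeR, with 0 at an unadjusted p under 0.05, or by DESeq2, and limma-voom called 8 (median -1.09). Without PMMA bone of rat 1, edgeR called 8 of the 9 lower, with a median of -3.05, and the median of the members was -2.22. That library was set aside for its high erythroid sum, so a larger erythroid fall without it follows from that choice. These calls and medians are a description, from which nothing is concluded.

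Other lists also changed without that library, when 10.5% of all genes were called lower. Of the stromal factors 3 fell (median -0.92), among them Cxcl12 (-1.10, adjusted p = 0.0250 by edgeR) and the adhesion molecule gene Vcam1 (-1.65, adjusted p = 0.00314). Of the neutrophil genes 9 fell, of the pre-B receptor genes 5, of the early B lineage genes 7, of the end-joining genes 6, of the mature B cell genes 8 and of the T lineage genes 2, and 1 plasma cell gene rose. The other lists had 2 calls for muscle genes and 0 for bone genes.

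The calls outside the 5 genes in the bone comparison rested on the libraries used. Of 22 named genes called there, 16 were called with a replicate block for rat, and Pou2af1, Cd3g, S100a8, Myh4, Pvalb and Ebf1 then had adjusted p of 0.0533 to 0.0723 by edgeR. All 22 were called without PMMA bone of rat 1, and none was by edgeR without PMMA bone of rats 2, 3 or 4 or BNED of rats 1 or 3, with adjusted p of 0.0512 to 0.171. Without BNED of rats 2 or 4, 10 and 13 were called.

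**Figure D4:**
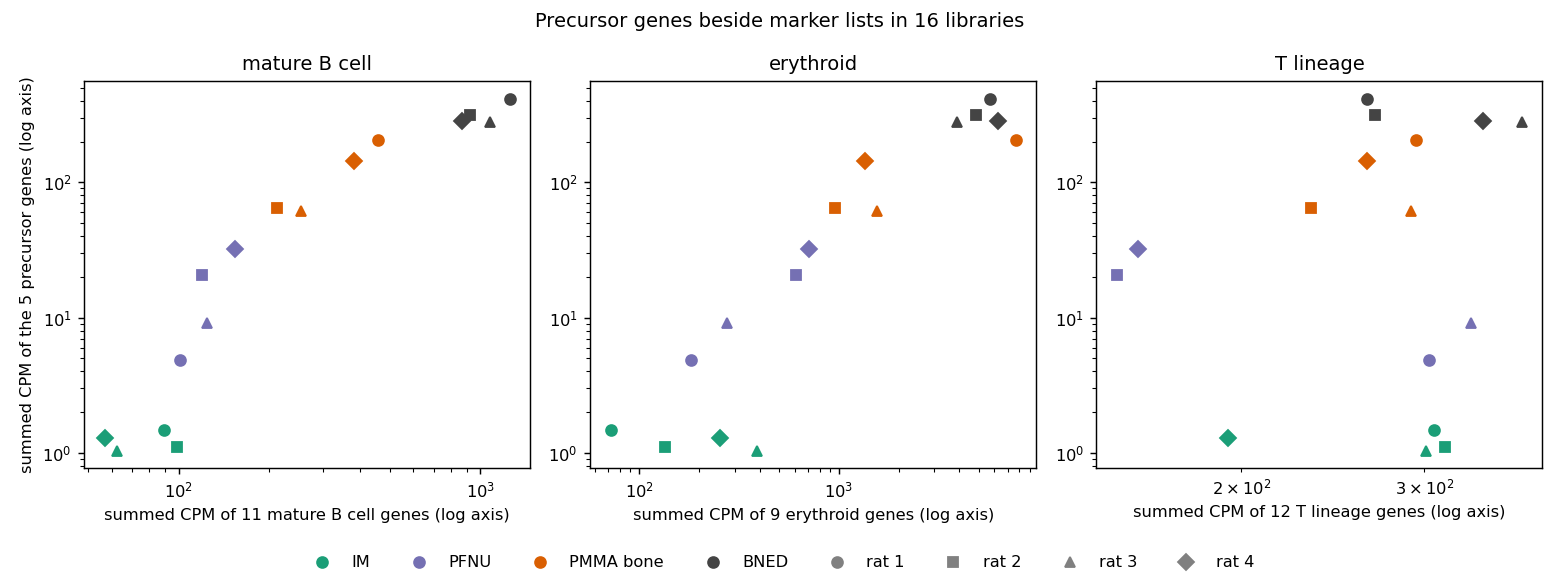
Summed CPM of the 5 precursor genes (vertical, log axis) against the summed CPM of 11 mature B cell, 9 erythroid and 12 T lineage genes (horizontal, log axes) in 16 libraries, coloured by group with symbols for rats. Mature B cell, erythroid and precursor sums have the same order of group means, the PMMA bone library of rat 1 lies beyond the BNED libraries on the erythroid axis, and T lineage sums overlap in all groups.

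The members varied together within each kind of tissue. Over the 8 bone libraries, correlations of log2 CPM between pairs of members were 0.794 to 0.988, highest for Rag1 with Rag2 and lowest for Vpreb3 with Dntt. Over the 8 libraries of IM and PFNU they were 0.663 to 0.977, lowest for Rag2 with Igll1. Each set of 8 holds 2 groups that differ in level and 4 rats that give 2 libraries each, so these values describe the libraries and have no p.

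The genes most like each member were taken as those with the highest of the smaller of these 2 correlations among 11500 genes averaging 1 CPM or more. For Rag1 they were Fam129c (0.966), Blk (0.944) and the haematopoietic transcription factor gene Nfe2 (0.944). For Rag2 they were Blk (0.971), the endocytosis gene Fcho1 (0.951) and Nup210l (0.950). Ell3, an elongation factor gene (0.944), Vpreb2 (0.931) and the red cell antigen gene Rhd (0.921) were nearest to Igll1. Spib (0.965), Cd79b (0.955) and Pou2af1 (0.951) were nearest to Vpreb3. For Dntt the nearest were Gfi1b, encoding a transcriptional repressor that acts within erythroid and platelet lineage cells (0.960), and the red cell antigen gene Kel (0.938). Of these genes Fam129c (-1.80, adjusted p = 0.0290 by edgeR), Nup210l (-2.16, adjusted p = 0.0174) and Ell3 (-1.56, adjusted p = 0.0450) were also called lower in PMMA bone than in BNED, besides those named above, whereas Gfi1b, Kel, Rhd, Nfe2 and Fcho1 had adjusted p of 0.0660 to 0.429. Without PMMA bone of rat 1 those 5 were called too, at log2 fold changes of -2.57 for Gfi1b (adjusted p = 0.0149 by edgeR), -3.09 for Kel (adjusted p = 0.00486), -2.94 for Rhd (adjusted p = 0.00676), -2.52 for Nfe2 (adjusted p = 6.63e-04) and -1.68 for Fcho1 (adjusted p = 0.0143). That library was also the highest of PMMA bone for each of them, so larger falls without it follow from its removal.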

How the data were processed

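RNA of 16 tissue libraries was sequenced after poly-A selection with a stranded kit, per the labels' protocols. The values are whole-number read counts per gene as the authors deposited them. Build rn5, TopHat2 2.0.13 with Bowtie2 2.2.1 listed beside it, FastQC 0.11.3 and DESeq2 are given in the submitters' processing notes. The counting program and its strand setting are not given in the sources used here, so reads of overlapping genes may be shared.

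Counts were scaled by TMM (library factors 0.659 to 1.19) and printed as CPM. Of 14476 genes, 12857 passed edgeR's filter, all 5 members among them. One edgeR 4.0.16 (R 4.3.3) quasi-likelihood model of 4 group means over 16 libraries gave each comparison, with Benjamini-Hochberg adjustment over all genes tested and calls at an adjusted p under 0.05. The scripts were tested on simulated data.

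The members and lists were chosen with earlier results of these data known. Genes named were the members, for each the 3 genes most like it, up to 3 called genes of largest change per list and comparison, and a set of B and T cell markers. Erg, Poll and Tfrc were named after their values were seen. Cd79a, Il7r, Ptcra and Jchain were not used here, and values of 2 other genes that this rule names are not reported here.

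Libraries of the same rat are paired, per the labels. Across genes, same-rat deviations from the group means correlated at -0.24 to 0.45. Replicate libraries differed far beyond sampling noise. Alternatives were DESeq2 1.42.0, limma-voom 3.58.1, another scaling, no filter, robust fitting, the 8 libraries alone, a rat block and leaving out each library. The list counts without PMMA bone of rat 1 and the erythroid sums without Tfrc were added after the data were seen.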

Additional observations from a re-analysis of the deposited data

Results flagged for a closer look

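In 240 groups of 4 libraries (60 named genes in 4 groups), 22 had a highest library set apart from the other 3 by Dixon's criterion, and no lowest library was. For normal values chance alone meets the criterion in about 5% of groups, both ends together. The named genes are not independent and CPM need not be normal, so the 22 are not compared with that rate. Of the members only Rag1 was among them, with 187.07 CPM in BNED of rat 1, against 131.43 CPM in the next library. The same BNED library was highest for Pou2af1 (330.71 CPM) and Cxcr4 (160.35 CPM).

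PMMA bone of rat 1 was set apart for 10 genes, most of them of red or myeloid cells. They were Slc4a1 (2254.2 CPM), Rhag (307.9 CPM), Hemgn (719.59 CPM), Kel (286.97 CPM), Rhd (235.93 CPM), Nfe2 (79.373 CPM), Ctsg (21.857 CPM), Elane (11.886 CPM), Paxip1 (50.44 CPM) and Ikzf3 (4.7872 CPM). PMMA bone of rat 4 was set apart for Polm (38.012 CPM).

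PFNU of rat 4 stood apart for Vpreb2 (0.84027 CPM), Ell3 (3.3611 CPM) and Paxip1 (31.323 CPM). Among membranes, rat 2 did so for Pax5 (0.71961 CPM), Elane (0.30123 CPM) and Vcam1 (123.77 CPM), and rat 3 for Vpreb1 (0.019259 CPM, a single count) and Ibsp (885.01 CPM).

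For 2 genes all 4 rats moved one way between IM and PFNU and all 4 the other way between PMMA bone and BNED, and the difference was not tested. For Ebf1 the mean log2 difference was 0.38 between IM and PFNU and -0.75 between PMMA bone and BNED, a gap of 1.1305. For Ibsp, a bone matrix gene, it was -1.36 between IM and PFNU and 1.14 between PMMA bone and BNED, a gap of -2.507.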

How the results depend on the processing

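All 320 member values, over 4 comparisons and all settings, were negative. Between PMMA bone and BNED, 1 member was called by edgeR, against 3 by DESeq2, 5 by limma-voom, 3 with the 8 libraries alone, 0 with the replicate block for rat (4 at an unadjusted p under 0.05), and 0 to 3 when a library was left out. Over all genes that comparison had 631 calls, against 1546 by DESeq2, 6244 by limma-voom, 1767 with the 8 libraries alone and 0 to 2578 when a library was left out. Between IM and PMMA bone the 2860 calls over all genes became 908 with the 8 libraries alone and 1818 to 4047 when a library was left out. Between PFNU and BNED the 3884 calls became 6720 by limma-voom. In those 2 comparisons all 5 members were called under every setting run, the rat block included, but the genes were chosen with IM and PFNU values known. Between IM and PFNU, where all 5 members and 111 genes were called, limma-voom called 0 members and 0 genes (1558 at an unadjusted p under 0.05), the 8 libraries alone gave 0 and 0 (1323 at an unadjusted p under 0.05), the replicate block 3 and 47, DESeq2 572 genes, and leaving out a library 1 to 5 members and 11 to 244 genes. With RLE scaling 27 genes were higher and 62 lower in IM, against 47 and 64 with TMM. The block changed no other call of a member than that of Vpreb3 between the bones and those counted between IM and PFNU. The causes of these differences were not tested. Depth limits the ratios between members in IM, where each library held 54 to 77 counts of the 5 genes in all.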
